A study of Mus musculus with 3 samples.

Results

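The C2+ Angpt2+ Gata6+ fibroblasts of the mouse hind paw were 426 of the 24485 cells kept in the series, 163 in the steady-state library (day 0) and 263 in the library made 5 days after arthritogenic serum. They were chosen by the measured counts themselves. A cell was kept when it had at least 500 genes, at least 1000 unique molecular identifiers (UMIs, each standing for 1 captured mRNA molecule) and at most 10% mitochondrial UMIs. A member was a kept cell with at least 1 UMI of the fibroblast receptor gene Pdgfra and at least 1 UMI of 3 or more of 6 genes, C2, Angpt2, F3, Gata6, Abcc9 and Fmo2. It also had no UMI of the mural gene Notch3, the leukocyte gene Ptprc or the endothelial gene Pecam1, and fewer than 5 UMIs of Saa3. All other kept cells with Pdgfra, 6002 at day 0 and 9134 at day 5, formed the comparison group and are called other Pdgfra cells.

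In the K/BxN serum transfer model, mice receive an intraperitoneal injection of serum from arthritic K/BxN mice, and inflammation of the paws follows. Hind paws stripped of skin, muscles and tendons were digested with collagenase, and sorted CD45-negative stromal cells were taken at steady state or at day 5 for droplet single-cell RNA sequencing. The remaining library held myeloid cells of day 9 and was not searched for members. The strain, sex and age of the mice and the number of mice pooled in each library are not given in the sources used here. Each day is 1 library. Day and library cannot be told apart, no test between days or groups was possible, and all intervals below are 95% intervals that cover counting error only.

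Fibroblasts of the joint form a thin lining that faces the joint cavity and a looser tissue below it that surrounds vessels, nerves and fat. C2 encodes a protease of the classical and lectin complement pathways, Angpt2 a secreted ligand of the endothelial receptor Tie2, F3 tissue factor, the receptor that starts coagulation, and Gata6 a zinc-finger transcription factor that binds GATA sequences. Abcc9 encodes the sulphonylurea receptor subunit of potassium channels gated by ATP, Fmo2 a flavin-dependent monooxygenase, and Inmt a methyltransferase of small amines. Stromal cells that carry tissue factor on their surface are known in adipose tissue, where several of their genes, such as Gdf10, Mgp and Meox2, have been described.

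Members made up 2.64% of the 6165 Pdgfra cells at day 0 (exact interval 2.26 to 3.08%) and 2.80% of the 9397 at day 5 (2.48 to 3.15%). The 2 intervals overlapped. Members were shallower than the other Pdgfra cells at day 0, with a median of 7620 UMIs against 10281.5, while at day 5 the medians were 9110 and 9822. Their summed counts were 1388281 UMIs at day 0 and 3042138 at day 5, against 65961591 and 104745796 in the other Pdgfra cells. The stromal libraries held 77842586 and 122224428 UMIs in 7740 and 11900 barcodes and shared 25 barcodes among kept cells. No barcode was a member in both.

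The members' own levels of the 6 genes describe the choice and are no finding. The level is given as CPM, the UMIs of a gene scaled to 1000000 UMIs of its group. C2 stood at 295 CPM in members and 10.1 in other Pdgfra cells at day 0, and at 247 and 16.2 at day 5. For Angpt2 the values were 159 and 2.84 at day 0 and 110.4 and 3.41 at day 5. F3 had 389 and 8.07 at day 0 and 188 and 9.02 at day 5. Gata6, the gene of the label with the fewest UMIs, had 71.3 and 0.682 CPM at day 0 and 51.9 and 0.945 at day 5. It was seen in 63 of 163 and 97 of 263 members. Abcc9 had 139 and 5.41 CPM at day 0 and 108 and 5.19 at day 5, and Fmo2 had 332 and 16.7, then 281 and 18.3. Pdgfra itself differed little, at 465 and 381 CPM at day 0 and 400 and 399 at day 5.

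The label fits only some of the chosen cells at the level of single cells. C2, Angpt2 and Gata6 were detected together in 34 members at day 0 (20.9%) and 48 at day 5 (18.3%). Most members carried the rule's minimum or 1 gene more. At day 0, 62 members had 3 of the 6 genes, 49 had 4, 38 had 5 and 14 had all 6. At day 5 the numbers were 120, 70, 62 and 11. Among members with Gata6, 52 of 63 at day 0 and 88 of 97 at day 5 also had C2. Another 8 Pdgfra cells at day 0 and 34 at day 5 had 3 or more of the genes and were left out by the limits, and 15 of those at day 5 had 5 or more UMIs of the acute-phase gene Saa3.

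Each gene of the rule was then read in cells chosen without it, by at least 3 of the other 5 genes. C2 was detected in 93 of 121 such cells at day 0 (76.9%) and 136 of 168 at day 5 (81.0%), against 7.84% and 11.3% of the remaining Pdgfra cells. Gata6 was detected in 52 of 152 (34.2%) and 75 of 241 (31.1%), against 0.748% and 1.03%. Its CPM ratio was 60.5 (43.1 to 85.3) at day 0 and 33.7 (26.2 to 43.4) at day 5. Angpt2 was seen in 55.1% and 48.6% of cells chosen by the other genes, against 2.49% and 2.92%. For F3, Abcc9 and Fmo2 the shares lay between 51.0% and 72.6%, against 4.58 to 9.17% of the remaining cells. Each of the 6 genes was found in a larger share of the cells chosen by its partners than of the rest in both libraries. The lowest bound of any of these 12 CPM ratios was 12.5. The rule was chosen with earlier results of these data known. These shares and ratios therefore describe that choice and are no independent test of it.

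**Figure D1:**
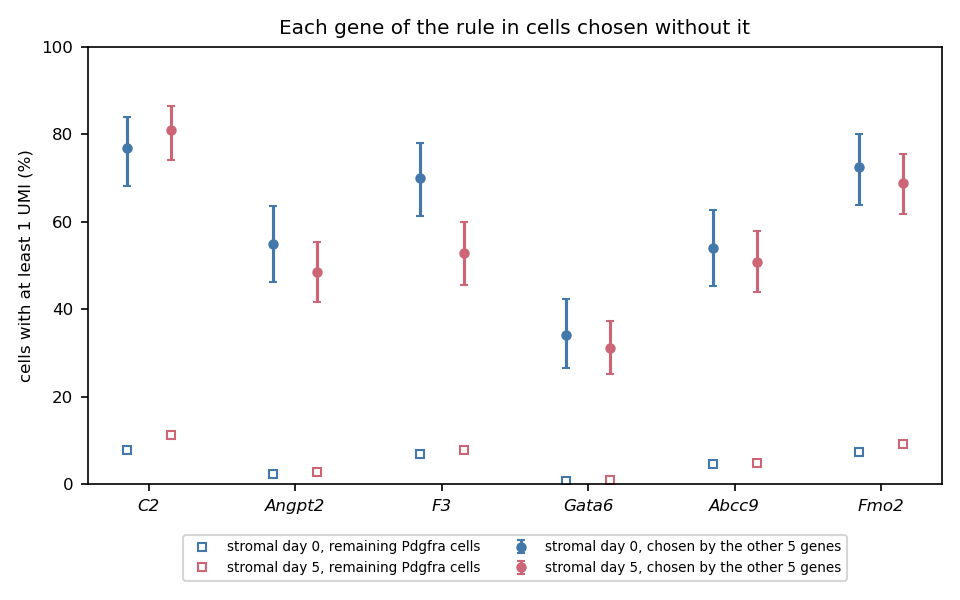
Percent of cells with at least 1 UMI (y axis) of each rule gene (x axis) in cells chosen by at least 3 of the other 5 genes (circles) and in the remaining Pdgfra cells (open squares), at day 0 in blue and day 5 in red. Bars are exact 95% binomial intervals, and the lowest circle, Gata6 at day 5 (31.1%), lies above every square.

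The rule genes were also read in cells without Pdgfra. Among 232 cells at day 0 with the tendon genes Tnmd and Fmod, C2 was seen in 6.03%, Angpt2 in 2.59%, F3 in 2.59%, Gata6 in 0.431% and Inmt in 3.45%, at a median of 8982 UMIs. In other Pdgfra cells of that library C2 was seen in 7.20%, Angpt2 in 2.08%, F3 in 6.38% and Gata6 in 0.567%. At day 5, 434 such cells had C2 in 5.07%, Angpt2 in 0.691% and Gata6 in 0, against 10.3%, 2.42% and 0.788% of other Pdgfra cells. Among 206 cells of day 0 with the bone genes Ibsp and Bglap, C2 and Angpt2 were each seen in 14.6%. The part of free RNA in these shares was not tested. Cells with the endothelial genes Pecam1 and Cdh5 were different. Of 89 at day 0, at a median of 7139 UMIs, 70.8% had Fmo2, 20.2% had Angpt2 and 8.99% had Gata6, while C2, F3 and Inmt were at 0 in all of them. Of 46 such cells at day 5, 50% had Fmo2, 30.4% had Angpt2 and 4.35% had Gata6. There C2 was at 0, F3 was seen in 1 cell and Inmt in 2, with 33 UMIs. The summed level of 12 blood endothelial markers in members was 38.9 CPM at day 0 and 40.1 at day 5, against 57.3 and 60.1 in other Pdgfra cells. Pecam1 is one of those markers and was set to 0 by the rule.

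The genes lie in separate places of the genome, except for one pair of neighbours relevant to the channel. In the mm10 build with GENCODE annotation, C2 spans chr17:34862604-34898265, Angpt2 chr8:18690263-18741562, F3 chr3:121723537-121735048, Fmo2 chr1:162874317-162898726 and Inmt chr6:55170626-55175043. Angpt2 lies within the span of Mcph1 on the other strand. The strand setting of the authors' counting is not given in the sources used here. Whether reads of that pair were kept apart is therefore uncertain. Abcc9 (chr6:142587862-142702315) lies beside Kcnj8 (chr6:142564837-142571614), which encodes the pore subunit that pairs with the sulphonylurea receptor. Kcnj8 was not used by the rule. It stood at 32.4 CPM in members and 3.62 in other Pdgfra cells at day 0, a ratio of 8.95 (6.36 to 12.3), and at 33.5 and 4.44 at day 5, a ratio of 7.55 (6.04 to 9.38).

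Kcnj8 is also a mural cell marker, so the whole mural list was read. Here and below, a gene was measured when it had at least 20 UMIs over both groups and at least 5 expected in members, and it counts as higher or lower when its CPM ratio was past 1.5-fold in both libraries. Of all 10531 measured genes, 308 (2.92%) were higher in members than in other Pdgfra cells and 469 (4.45%) were lower. Of 6 measured mural genes, Kcnj8 alone was higher in members, and 4 were lower. Des, on the same list, was too sparse for this count. In members with at least 4 rule genes it had 12 UMIs at day 0 and 17 at day 5, at ratios of 4.58 and 3.87. Rgs5, the most used pericyte marker, had 1 UMI in all members of each library, 0.720 and 0.329 CPM, against 28.2 and 20.5 CPM in other Pdgfra cells. The summed mural level was 166 CPM in members and 223 in others at day 0 and 174 and 209 at day 5. Leukocyte markers summed to 0 CPM in members and 3.78 in others at day 0 and to 4.93 and 3.24 at day 5, and in members mesothelial markers summed to 0.720 and 0 CPM. The mural and leukocyte lists each hold a gene that the rule set to 0, Notch3 and Ptprc. The 10 general fibroblast markers, among them Col1a1 and Dcn, summed to 50867 CPM in members and 46260 in others at day 0 and 43769 and 43114 at day 5. The rule removed cells with Notch3, Pecam1 or Ptprc from the members and not from the other Pdgfra cells, so the lower mural and endothelial sums partly restate the choice of members.

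To see whether members lay together in genes the rule did not use, each Pdgfra cell was placed by principal components computed without the genes of the rule. Among the 15 nearest cells of a member, 60.5% were members on average at day 0 and 50.1% at day 5, against 0.796% and 1.04% around other Pdgfra cells. A majority of members sat in such company: 112 of 163 (68.7%) at day 0 and 142 of 263 (54.0%) at day 5 had members as at least 50% of their neighbours. Others stood alone, since 16 members at day 0 and 42 at day 5 had no member neighbour. Of those 42, 35 had the minimum of 3 rule genes. The share of member neighbours was 8.04% and 6.08% around cells with 2 of the rule genes, which are just outside the threshold. It was 46.2% and 30.8% around members with 3, and 80.0% and 86.1% around members with all 6. Because earlier results of these data were known when the rule was chosen, these shares describe the members and are no independent test.

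**Figure D2:**
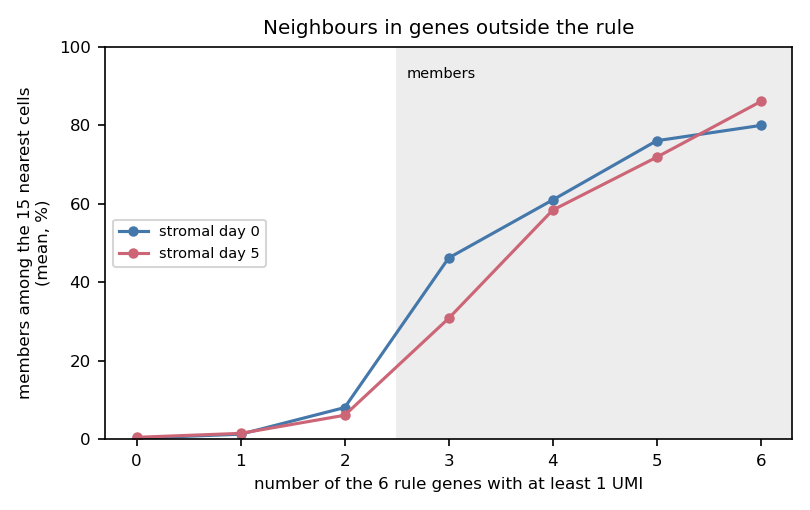
Mean percent of members among the 15 nearest Pdgfra cells (y axis) by the number of rule genes a cell had (x axis), with day 0 in blue, day 5 in red and the members' range shaded. The share went from under 1% in cells with none of the 6 genes to 80.0% and 86.1% in cells with all 6.

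Since members were selected by their transcripts, the levels of the 308 higher and 469 lower genes describe them and are no test of a difference. Inmt, the label gene that the rule did not use, had 1271 CPM in members and 96.5 in others at day 0 and 1179 and 192 at day 5. It was detected in 89.0% and 81.8% of members against 27.4% and 36.1% of other cells. Ifitm1, an interferon-induced membrane protein gene, had the largest ratio by the rule for naming genes. Its level was 125 CPM against 2.41 at day 0, a ratio of 51.7 (41.4 to 64.5), and 155 against 7.71 at day 5, a ratio of 20.1 (17.9 to 22.5). It was seen in 30.7% and 39.5% of members, so most members had no UMI of it. Epha3, an ephrin receptor gene, had 97.2 against 10.0 CPM at day 0 and 88.8 against 10.1 at day 5, ratios of 9.70 and 8.79.

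Tnfsf13b, which encodes the B-cell survival factor BAFF, had 60.5 against 7.07 CPM at day 0 and 78.6 against 8.61 at day 5, ratios of 8.57 (6.71 to 10.8) and 9.12 (7.88 to 10.5). Kitl encodes stem cell factor, the ligand of the mast cell receptor Kit. It had 492 against 56.9 CPM at day 0 and 266 against 54.0 at day 5. Gdf10, a ligand of the BMP and TGF-beta family, had 1308 against 199.7 CPM and 984 against 194, with a UMI in 97.5% and 95.8% of members. From the growth factor list, Ntf3, the neurotrophin-3 gene, had ratios of 6.26 and 3.96. Vegfa, the main vascular growth factor gene, had 102 against 27.6 CPM and 104.5 against 30.7. Its co-receptor gene Nrp1 was higher as well, with 495 against 100.3 CPM at day 0 and 548 against 181.5 at day 5. Over the 21 measured genes of the angiopoietin and VEGF list, however, these were the 2 that were higher and 6 were lower, among them Angptl1 with ratios of 0.246 and 0.317.

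The list that holds Inmt and Adh1 covers the metabolism of retinol and foreign compounds. Of its 24 measured genes, 9 were higher in both libraries and 1 was lower, with median log2 ratios of 0.53 and 0.44, while the median over all genes was -0.03 at day 0 and 0.00 at day 5. Adh1, an alcohol dehydrogenase that can oxidise retinol, had 271 against 25.7 CPM at day 0 and 216 against 48.8 at day 5. The sulphotransferase Sult1a1 had ratios of 3.62 and 2.13, the flavin monooxygenase Fmo1 2.98 and 2.52, the glutathione transferase Gsta3 3.50 and 1.86, and the retinaldehyde dehydrogenase Aldh1a1 2.50 and 2.67. The exception was Aldh3a1, an aldehyde dehydrogenase, at ratios of 0.462 and 0.506.

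Of 11 measured genes on a list of tissue-factor-positive adipose stroma, 6 were higher in both libraries and 1 was lower, with medians of 1.48 and 1.26 on the log2 scale. Besides Gdf10 and Epha3 the higher genes were Mgp, Cygb, Igfbp3 and Meox2. The lower gene was Rspo2. In members with at least 4 rule genes it had 3 UMIs in each library, at ratios of 0.333 and 0.196. The list was drawn up with earlier results of these data known. Mgp, which encodes a matrix protein that inhibits calcification, had 7779 against 1654 CPM at day 0 and 6331 against 2587 at day 5. Cygb, the cytoglobin gene, had 1928 against 470.5 and 1546 against 480.1 CPM. It was found in all members at day 0 and 98.1% at day 5. Igfbp3, which binds insulin-like growth factors, had ratios of 9.08 and 6.02. Pparg, the master regulator of fat cells, had 0 UMIs in members at day 0 and 1 at day 5, too few for a comparison with other Pdgfra cells. Lpl, which releases fatty acids from lipoproteins, had ratios of 2.82 and 1.86 and Apoe 3.21 and 2.24.

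Among 24 measured genes of the transcription factor list, 7 were higher and 6 lower in both libraries. Osr1, a zinc-finger factor of connective tissue, had 469 against 84.0 CPM at day 0 and 384 against 117 at day 5. Zfpm2 encodes FOG2, a cofactor of GATA proteins, and had 28.1 against 5.16 CPM and 14.8 against 4.39. The orphan nuclear receptors Nr2f2 and Nr2f1 had ratios of 4.15 and 3.20, and of 4.34 and 1.57. Gata2 and Gata4 had 0 UMIs in members of both libraries, and no comparison with other Pdgfra cells is drawn from these zeros. Hand2, a limb patterning factor and one of those lower, had 7.20 against 58.9 CPM at day 0 and 17.4 against 37.4 at day 5. Of 10 measured distal Hox genes, 0 were higher and 4 were lower, among them Hoxd13 at ratios of 0.495 and 0.479.

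Because Gata6 binds GATA sequences, the promoters of the genes highest in members were read for them. The 250 bases before the annotated start were taken from RefSeq on GRCm38.p6 and searched on both strands for 4 GATA motifs. The search covered 32817 windows, with a chromosome left out. Of these windows, 9.99% held AGATAA, while 7.95% held TGATAA, a further motif AGATAG was in 7.71% and the motif TGATAG in 6.36%. Of the 20 genes highest in members, 16 had an entry, and 5 of these held a match in at least 1 window. Counted by window, 6 of 18 held a match, beside 26.6% of all windows searched. The promoters of 2 genes with a match and of Inmt, which had none, are shown as examples with matches in capitals, for Epha3 at chr16:63864176-63864425 (minus strand), Adh1 at chr3:138277335-138277584 (plus strand) and Inmt at chr6:55174991-55175240 (minus strand).
Epha3: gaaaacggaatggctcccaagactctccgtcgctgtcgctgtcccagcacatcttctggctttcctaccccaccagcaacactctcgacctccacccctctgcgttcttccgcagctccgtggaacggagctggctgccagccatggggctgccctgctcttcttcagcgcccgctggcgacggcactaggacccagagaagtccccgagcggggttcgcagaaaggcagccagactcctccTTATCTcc
Adh1: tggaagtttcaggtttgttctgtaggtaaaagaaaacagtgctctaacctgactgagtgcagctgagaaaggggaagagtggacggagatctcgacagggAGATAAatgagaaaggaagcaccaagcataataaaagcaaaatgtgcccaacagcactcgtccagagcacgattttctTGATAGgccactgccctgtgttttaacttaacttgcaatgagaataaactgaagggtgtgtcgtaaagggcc
Inmt: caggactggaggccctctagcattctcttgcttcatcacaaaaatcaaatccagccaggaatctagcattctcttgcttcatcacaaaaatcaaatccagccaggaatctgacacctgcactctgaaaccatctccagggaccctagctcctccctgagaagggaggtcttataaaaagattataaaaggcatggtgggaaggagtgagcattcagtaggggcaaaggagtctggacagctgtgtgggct
A match describes the letters in the window and says nothing of binding by the factor. The window of Epha3 held 1 match, TTATCT, the reverse complement of AGATAA, and that of Adh1 held 2. The Adh1 window lies inside the longer span that GENCODE gives the gene.

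Matrix genes were split between a few that were higher and more that were lower. Of 37 measured matrix protein genes, 5 were higher in both libraries and 12 were lower. Eln, the elastin gene, had 535 against 67.2 CPM at day 0 and 600 against 83.7 at day 5, ratios of 7.95 and 7.17. Sparcl1, a secreted matrix-binding glycoprotein gene, had ratios of 3.67 and 2.64, and Mfap4, which associates with elastic fibres, 2.92 and 1.74. Fibronectin (Fn1) had 1142 against 2361 CPM and 762 against 1599. Postn, the periostin gene, had 103 against 349 and 133 against 381 CPM. Among 22 collagens, 3 were higher and 3 lower. Those higher were the vessel-associated Col15a1, at 191 against 55.0 and 126 against 44.4 CPM, and the basement membrane chains Col4a2 and Col4a4. Of 11 small leucine-rich proteoglycan genes, Podn alone was higher, with ratios of 3.02 and 2.51, and 6 were lower, among them Aspn at 0.256 and 0.399.

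The genes furthest below other Pdgfra cells included abundant ones. Gpx3, a secreted glutathione peroxidase gene, had 1085 against 3893 CPM at day 0 and 1369 against 4027 at day 5. Myoc, the myocilin gene, had 581 against 2168 and 566 against 1655. Clu, which encodes the complement inhibitor clusterin, had 167 against 658 and 176 against 529. The others chosen by the naming rule were Pcsk6, Fibin, Krtdap, Angptl1, Chad, Postn and Fndc1, with ratios of 0.0198 to 0.351 at day 0 and 0.195 to 0.348 at day 5. All 10 lay below the others in both libraries, with no interval reaching 1. They were chosen by their ratios in both libraries, so this restates the choice.

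**Figure D3:**
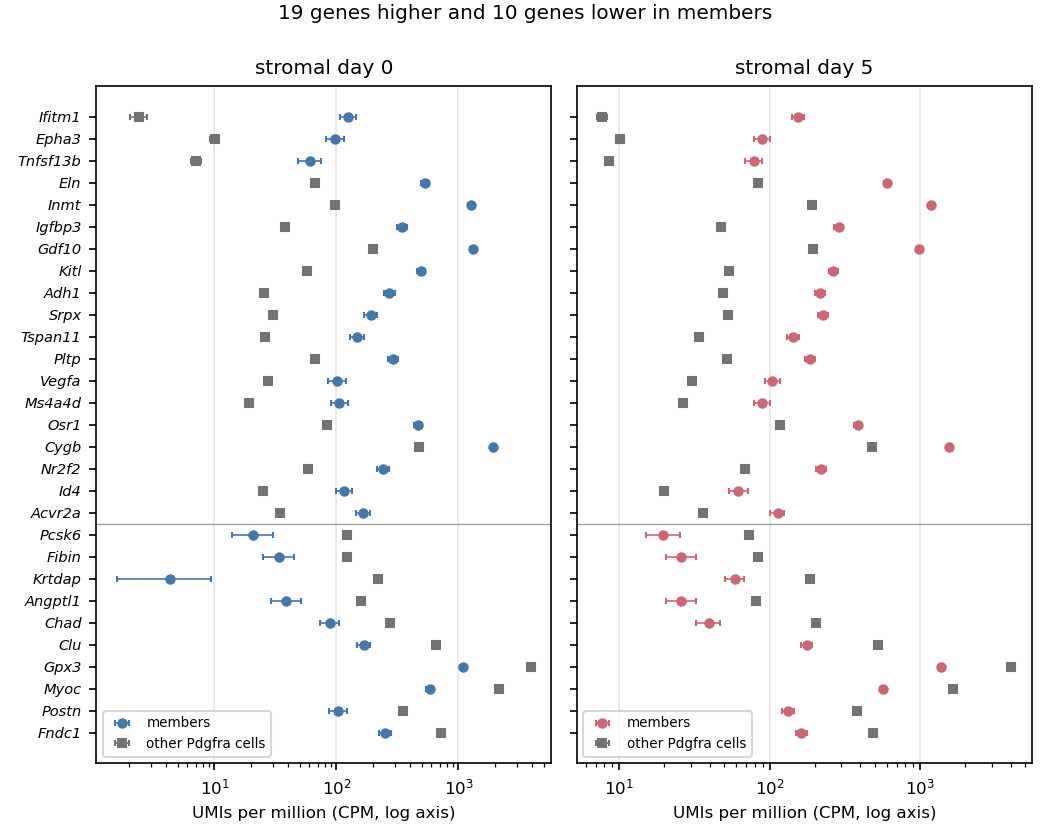
CPM on a log axis for 19 of the 20 genes furthest above and the 10 furthest below other Pdgfra cells, with members as circles, other Pdgfra cells as grey squares and exact 95% Poisson intervals as bars. In both libraries all 19 upper genes lie to the right of the squares and all 10 lower genes to the left. They run from Ifitm1 (125 against 2.41 CPM at day 0) to Fndc1 (251 against 714). The genes were chosen by these ratios, so their sides restate the choice.

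Complement and coagulation genes did not follow C2 and F3 as groups. Of 13 measured complement genes, C1s1, the protease gene of the first complement component, was higher, at 527 against 258 CPM and 643 against 375, and 3 were lower. The central component C3 had 1248 against 1302 CPM at day 0 and 1964 against 2119 at day 5, ratios of 0.959 and 0.927. Cfb, which lies next to C2 and encodes the matching protease of the alternative pathway, had ratios of 1.25 and 1.70. C7, of the membrane attack complex, was too sparse for the count of genes, with 18 UMIs in members at day 0 and 51 at day 5. It was detected in 9.20% and 12.2% of members, against 0.150% and 0.339% of other Pdgfra cells. Of 14 measured coagulation and fibrinolysis genes, 2 were higher and 1 was lower. Pros1, the gene of the anticoagulant protein S, had ratios of 1.67 and 1.52. Tfpi, the inhibitor of tissue factor, was too sparse for this count, at 10.1 against 3.15 CPM at day 0 on 14 UMIs. In members with at least 4 rule genes Tfpi had 11 UMIs at day 0 and 15 at day 5, at ratios of 4.26 and 2.07.

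Some chemokine and protease genes were higher in members in both libraries, the steady-state one included. Of 18 measured chemokine genes, 4 were higher in both libraries and 0 were lower. Ccl11, the eosinophil attractant eotaxin, had 733 against 140 CPM at day 0 and 593 against 190 at day 5. Cxcl16 had ratios of 3.94 and 2.95, Cxcl1, a neutrophil attractant, 2.56 and 1.51, and Cxcl14 1.87 and 1.77. Of 26 measured metalloproteinase, inhibitor and ADAMTS genes, 7 were higher and 1 was lower, led at day 0 by Mmp3, which encodes stromelysin, at 324 against 65.4 CPM. In the lists of BMP and TGF-beta genes, 5 of 31 were higher and 5 lower, and the higher ones included the BMP antagonist gene Chrdl1 (3.84 and 2.89). Of 19 Wnt genes, 3 were higher, among them Wnt5a at 3.05 and 1.88, and 5 were lower. For 22 genes induced by tissue dissociation, 2 were higher, and the medians were 0.47 and 0.25 on the log2 scale. The part of dissociation in these levels was not tested.

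The same genes were read by the number of rule genes per cell, among cells within the other limits. Inmt had 170 CPM at day 0 in cells with 2 of the 6 genes and 772 in members with 3, and 330 and 793 at day 5. It was detected in 41.2% and 49.9% of cells with 2 and in 79.0% and 70.0% of those with 3. Gdf10 had 487 CPM with 2 genes, 991 with 3 and 1687 with 5 at day 0. In the opposite direction, Gpx3 had 2605 CPM with 2 genes, 1662 with 3 and 719 with 4, and Myoc 1864, 1156 and 331. The largest relative step of Inmt was thus at the rule's threshold, but levels went on changing from members with 3 genes to those with 4 or 5, and the members with 3 included cells that sat among other fibroblasts.

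**Figure D4:**
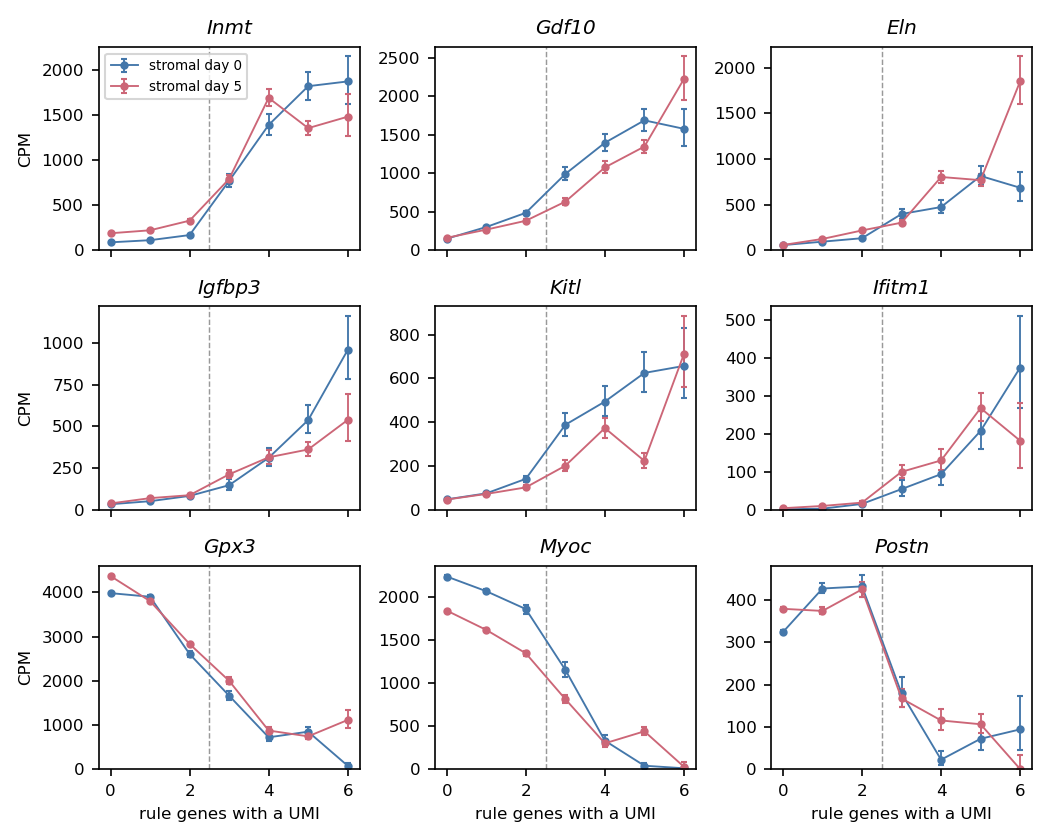
CPM (y axis) of 6 genes higher and 3 lower in members, by the number of rule genes with a UMI (x axis), at day 0 in blue and day 5 in red. Bars are exact 95% Poisson intervals and the dashed line is the threshold between non-members and members, across which Inmt went from 170 to 772 CPM at day 0 and Gpx3 from 2605 to 1662.

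Of 12 gene pairs that mark other fibroblast states, 4 were more frequent in members than in other Pdgfra cells in both libraries, 6 were less frequent in both and 2 differed in direction. The less frequent pairs include Saa3 with Ptx3, which the rule's limit on Saa3 restricts in members only. That pair was found in 0 of 163 members and 6 of 6002 other Pdgfra cells at day 0. At day 5 it was found in 1.14% and 5.04%. The pair Pi16 and Dpp4, which marks adventitial-type fibroblasts, was found together in 3.68% of members at day 0 and 3.04% at day 5, against 10.8% and 10.2% of other Pdgfra cells. The lining pair Prg4 and Clic5 was found in 0 of 163 members at day 0 (interval to 2.24%) and in 3 of 263 at day 5, against 3.68% and 2.73%. Has1 and Il6 were found together in 13.5% and 17.5% of members, against 6.96% and 8.98%. Sema3d with Rbp4 occurred in 8.59% and 10.6% of members, against 3.97% and 4.76%, and Smoc2 with Hsd11b1 in 7.36% and 10.3%, against 2.92% and 3.14%. Adh7 with Sult5a1, both of the same kind of metabolism as Adh1, occurred in 7.36% of members at day 0 and 23.9% at day 5, against 5.85% and 9.80%.

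Between the days, 1278 of 10222 genes (12.5%) were at least 1.5-fold higher in members at day 5, and 826 (8.08%) were lower. The median over these genes was 0.03 on the log2 scale in members and 0.00 in other Pdgfra cells. Single cells held a large part of some counts. Of 388 Lcn2 UMIs at day 5, 157 came from 1 cell, of 217 Saa1 UMIs 169, and of 1413 Bglap UMIs 1188. Without the 2% of members richest in the gene the day ratio of Lcn2 was 20.1 in place of 25.3, and that of Bglap 6.26 in place of 8.60. For Saa1 0 UMIs were then left at day 0, so it has no such ratio. Spp1, the osteopontin gene, had a ratio of 0.325, but 2200 of its UMIs at day 0 lay in 1 member, and without the richest members the ratio was 3.90.

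Acute-phase genes were higher in the day 5 library. All 8 measured genes of the list were past 1.5-fold, or 6 without the members richest in each gene. The median was 3.33 on the log2 scale in members and 2.22 in other Pdgfra cells. Serpina3n, a secreted protease inhibitor gene, had 174 CPM at day 0 and 701 at day 5, a ratio of 4.02 (3.52 to 4.61), and was detected in 54.0% and 76.4% of members. In the other Pdgfra cells its ratio was 3.07. Lcn2, the lipocalin that binds bacterial siderophores, had 5.04 and 127.5 CPM, on 7 UMIs at day 0 and 388 at day 5. Its ratio was 25.3 (12.2 to 63.3), and 7.08 in the others. Ptx3, a pentraxin of innate immunity, had 3 UMIs at day 0 and 364 at day 5, a ratio of 55.4 (18.8 to 269.7), and 8.0 in the others. Its level in members was below the others on both days, at 2.16 against 31.9 CPM and 119.7 against 256. Of the 364 UMIs, 75 lay in 1 cell. Without the richest members 0 UMIs of Ptx3 were left at day 0, so it has no such ratio. The rule's limit on Saa3 removed 15 cells at day 5, so the day values describe cells below that limit. With the same limits set on the other Pdgfra cells, their Lcn2 ratio was 4.41 and their Serpina3n ratio 2.75.

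In members 8 of 16 measured chemokine genes were higher at day 5 and 0 were lower. The median of the list was 0.57 on the log2 scale in members and 0.61 in other Pdgfra cells. Ccl19, which attracts lymphocytes and dendritic cells through CCR7, had a ratio of 3.03 in members (2.64 to 3.50) and 2.71 in others, and was detected in 57.7% of members at day 0 and 67.7% at day 5. Its symbol stands for 2 identifiers in the files, and the value is that of ENSMUSG00000071005. Ccl2, a monocyte attractant, had 33.9 and 165 CPM, a ratio of 4.87 (3.60 to 6.71), against 7.51 in the others and 5.47 in the others held to the same limits. Without the richest members it was 7.32. Cxcl5, a neutrophil attractant, had 45.4 and 49.3 CPM, a ratio of 1.09 (0.804 to 1.48), on 63 and 150 UMIs in 7.98% and 14.8% of members, while the other Pdgfra cells had 3.62 and 85.6 CPM, a ratio of 23.6. Mmp3 had 324 and 668 CPM in members, a ratio of 2.06 (1.86 to 2.29), and 6.24 in others. In the others held to the same limits the ratio was 17.4 for Cxcl5 and 4.21 for Mmp3. For Cxcl5 and Mmp3 the level was thus already higher in members at day 0, by 12.5-fold and 4.96-fold, and the day ratio was smaller than outside. Whether the day ratios differ between the groups beyond the spread between mice could not be tested with 1 library a day.

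Il33 and Il6 differed between the libraries in opposite directions in members. Il33, an alarmin of barrier and stromal cells, had 61.2 CPM at day 0 and 161 at day 5, a ratio of 2.63 (2.09 to 3.35), while the other Pdgfra cells had 47.0 and 42.4 CPM. Among members with at least 4 rule genes the Il33 ratio was also 2.63 (2.01 to 3.50). Il6 had 144 and 92.4 CPM in members, a ratio of 0.641 (0.533 to 0.773), against 1.74 in others. Kitl had 492 and 266 CPM, a ratio of 0.540 (0.487 to 0.599), and 0.949 in others. In members with at least 4 rule genes it was 0.569 (0.501 to 0.646).

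The members' defining genes were mostly at like or lower levels at day 5. F3 had 389 CPM at day 0 and 188 at day 5, which describes a gene of the rule, and 566 and 251 in members with at least 4 of the genes. Inmt had a day ratio of 0.928 (0.877 to 0.983) in members and 1.99 in others. Adh1 had 0.799 (0.703 to 0.909) and 1.90, and Mgp 0.814 (0.795 to 0.833) and 1.57. For these 3 genes the gap between members and other Pdgfra cells was therefore narrower in the day 5 library. Ccl11 was alike, with 0.810 in members and 1.36 in others. Tnfsf13b, Eln and Vegfa had day ratios of 1.30, 1.12 and 1.03 in members and 1.22, 1.25 and 1.11 in others.

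Of 19 measured genes on a glucocorticoid and clock list, 4 were higher in members at day 5 and 5 were lower. Per3, Nr1d1 and Nr1d2, which act in the circadian oscillator, had ratios of 0.507 (0.383 to 0.672), 0.492 (0.384 to 0.631) and 0.482 (0.326 to 0.712), against 0.851, 0.883 and 0.959 in others. The hour at which each library was taken is not given in the sources used here, and its part was not tested. In the same list the metallothionein Mt2 had 533 and 1557 CPM in members, and the glucocorticoid target Tsc22d3 154 and 279. The whole list summed to 6231 and 8439 CPM in members and to 5635 and 10505 in other Pdgfra cells. Its median day ratio on the log2 scale was -0.46 in members and 0.06 in the others. Among the 15 smallest day ratios by the naming rule were Stc1, the stanniocalcin gene (0.222, 0.157 to 0.310), Tmem100 (0.274) and Has2, a hyaluronan synthase gene (0.330), which in other Pdgfra cells were 0.468, 0.323 and 0.481.

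**Figure D5:**
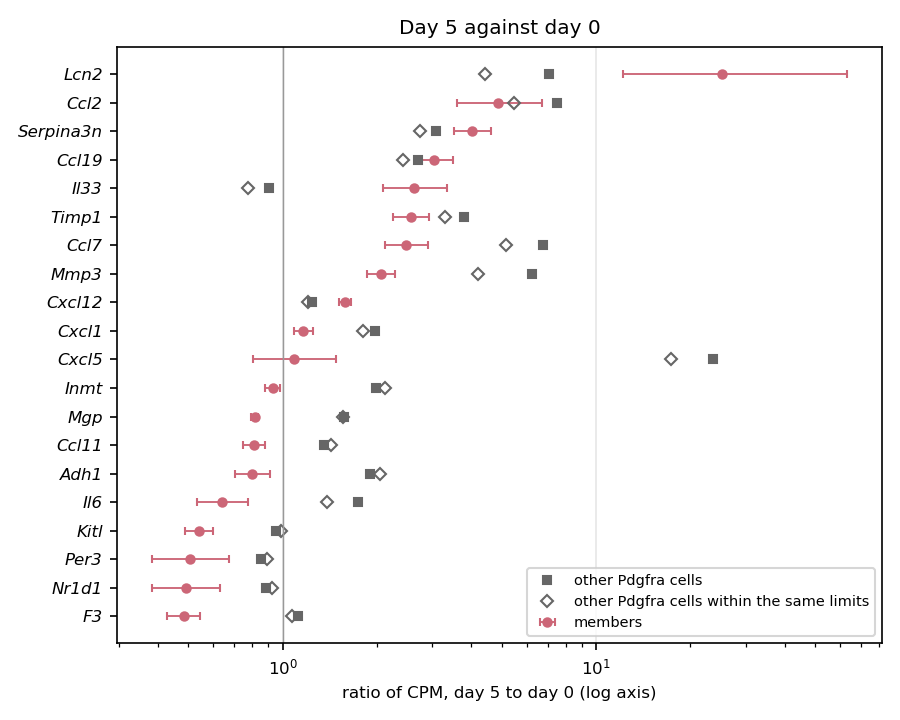
Ratio of CPM at day 5 to day 0 on a log axis for 20 genes in members (red, exact 95% intervals), in other Pdgfra cells (grey squares) and in other Pdgfra cells held to the same limits (open diamonds). Cxcl5 (1.09 in members, 23.6 in the others) shows the widest gap, Il33 (2.63 and 0.901) lies on opposite sides of the vertical line at a ratio of 1, and so does Il6 (0.641 and 1.74).

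Markers of other cell types moved with the day 5 members and are given beside these results. The lining list summed to 243 CPM in members at day 0 and 2019 at day 5, against 3913 and 3839 in others. Prg4, the lubricin gene, made up most of it, with 204 and 1913 CPM and a UMI in 25.2% and 53.2% of members. Of its 5819 UMIs at day 5, 1604 lay in 1 cell, and the ratio of 9.38 was 5.94 without the richest members. Osteoblast markers summed to 630 and 1526 CPM, against 1390 and 1010 in others, and most came from few cells. A score-based removal of likely doublets took 37 of 263 members at day 5 (14.1%) and 8 of 163 at day 0 (4.91%), against 9.52% and 6.19% of all barcodes. Day 5 members reached 67151 UMIs in a cell, and 29233 at day 0. Without the barcodes of highest score the Prg4 ratio was 7.21, that of Bglap, an osteoblast matrix gene, was 0.824 in place of 8.60, and that of Lcn2 was 8.53.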

How the data were processed

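Deposited counts were whole-number UMI counts per gene and cell barcode, which the authors made against mm10, per the submitters' processing notes. Per the file headers the software was Cell Ranger 6.0.1. Seurat 4.3.0 is named in the submitters' processing notes without its role. Counts were read with Python 3.11.15, numpy 2.4.6 and scipy 1.17.1, and cells were kept and members chosen as described. The members, gene lists and naming rule were chosen with earlier results of these data known.

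Counts were summed over the cells of a group in a library and divided by the group's total to give CPM. Ratios of CPM carry an exact conditional binomial 95% interval, levels an exact Poisson interval and shares a Clopper-Pearson interval. These cover counting error only. A ratio of 1.5 is a size and not a test result. Genes entered the counts with at least 20 UMIs over both groups and at least 5 UMIs expected in members, the second minimum added after the data were seen. Lists are given as counts past that size in both libraries and as median log2 ratios.

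Named genes were the 20 with the largest smaller ratio of the 2 libraries (at least 50 CPM in members and 50 UMIs), the 10 with the smallest larger ratio, the 15 largest and 15 smallest day ratios, and the extreme and most abundant genes of each list. Genes named outside that rule, such as C7, Kcnj8, Cfb, Tfpi and Il33, were chosen after their values were seen. Some genes are not reported here. Neighbours were the 15 nearest cells in 30 components of 2000 variable genes (scanpy 1.11.5, scikit-learn 1.9.0). Scrublet, run in scanpy, called 1 and 0 doublets and so did not work, and doublets were not removed. As an alternative the barcodes of highest score were removed, 0.8% for each 1000 barcodes. Scaling by TMM used edgeR 4.0.16 in R 4.3.3. The interval and ratio code was tested on simulated data. Positions are from GENCODE on mm10 and promoters from RefSeq on GRCm38.p6.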

Additional observations from a re-analysis of the deposited data

Results flagged for a closer look

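Only the named genes and the genes of the lists were searched here, with the rule genes left out. Of these, 8 had day 5 to day 0 ratios past 1.5-fold in opposite directions in members and other Pdgfra cells. Each had at least 50 UMIs in members and intervals that left out 1 in both groups. No such count was made over all genes, so the 8 have no share to be set beside. The difference between the groups was not tested, since each day is 1 library. Bglap2, an osteocalcin gene, had a ratio of 11.3 in members and 0.491 in the others, and 577 of its 1491 UMIs at day 5 lay in 1 member. The bone phosphatase gene Alpl had 2.97 against 0.598. Hand2 had 2.42 against 0.634 on 10 and 53 UMIs. Hbegf, a growth factor gene on the lining list, had 4.72 against 0.624, and Rgcc, a cell cycle regulator gene, had 5.23 against 0.502. Rgcc had 15 UMIs at day 0 and 172 at day 5, of which 73 lay in 1 member. Without the richest members its ratio was 4.7. Htra4, a protease gene, had 1.51 against 0.509, but 63 of its 126 UMIs at day 5 lay in 1 member, and without the richest members the ratio was 0.645. Il6 had 0.641 against 1.74, and 0.660 without the richest members. Tnc, the tenascin C gene, had 0.537 against 1.52, but all 62 of its UMIs at day 0 lay in 1 member.

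The myeloid library of day 9, which is in no comparison of the report, held UMIs of all 6 rule genes in its 5223 cells with Ptprc. There were 328 of Angpt2 in 4.33% of cells, 58 of C2 in 0.862%, 40 of F3, 35 of Fmo2, 24 of Abcc9 and 4 of Gata6. These cells have no control group in the series.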

How the results depend on the processing

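Each day is 1 library, so no replicate could be left out. No paired analysis was possible because each group has 1 library. The share of members followed the rule. Requiring at least 4 of the 6 genes gave 1.64% for the first library and 1.52% for the second, at least 2 gave 6.34% and 7.36%, and the values were 1.68% and 1.65% when cells were thinned to 5000 UMIs. With at least 2 of the genes, 308 genes were lower in members. With thinning, 785 were higher at day 5. Without a count minimum and with 0.5 added, 4499 genes were higher in members, 793 lower, 2473 higher at day 5 and 2545 lower. With 20 UMIs as the only minimum, an alternative added after the data were seen, 690 were higher in members and 1228 lower. With 15 components, 46.8% of day 5 members had members as at least 50% of their neighbours. Scaling by TMM moved the members' sums by 0.04 and 0.05 on the log2 scale. Over 713 values of named genes, 694 stayed past 1.5-fold in the same direction and 11 changed direction, all day ratios. Spp1 was 5.68, 12.8 and 3.90 and Col12a1 1.33, 2.24 and 1.02 with at least 4 genes, with thinning, and without the richest 2% of members, the last added after the data were seen. Bglap was 0.824 without the barcodes of highest doublet score. With at least 2 genes Bglap was 0.869, Bglap2 0.699, Krtdap 0.830 and Rgcc 0.649. For the other changes the cause was not tested.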

Other observations

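Sterol synthesis genes, which answer to cellular cholesterol, were lower in members at day 5 for 7 of 20 measured genes and higher for 0. Insig1, a regulator that holds the pathway back, had 44.7 CPM at day 0 and 21.7 at day 5, a ratio of 0.486 (0.338 to 0.698), against 0.406 in other Pdgfra cells. The desaturase gene Scd1 had 131 and 79.5 CPM, a ratio of 0.607, against 0.644. Members and other cells thus had ratios in the same direction. Prostaglandin genes were higher at day 5 for 4 of 8 measured genes. Ptgs2, the inducible cyclooxygenase gene, had 31.0 and 66.1 CPM in members, a ratio of 2.13 (1.53 to 3.04), against 1.42. Gas6, a ligand of the TAM receptors that take part in clearing dying cells, had 681 and 1598 CPM, a ratio of 2.35 (2.19 to 2.52), against 1.94.

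Ifitm1, which had the largest ratio between members and other Pdgfra cells among the genes chosen by the naming rule, was also seen outside the stromal libraries. In the myeloid cells of day 9 it had 638.8 CPM and a UMI in 32.0% of cells, against 124.6 and 154.8 CPM in members. Leukocyte markers in members summed to 0 CPM at day 0 and 4.93 at day 5, against 3.78 and 3.24 in other Pdgfra cells.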
